A study of Mus musculus with 6 samples.

Results

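The 8 mouse genes Cd48, Necab1, Ube2u, Ccdc146, Fam185a, Ankle2, Ppfia2 and Tmem100 were described together because their promoters were listed as more methylated in each of 4 pluripotent stem cell lines without a hyper call in the germline stem cells. They were chosen by these same measurements, so the promoter values below describe the choice and carry no test. Promoters reached from 2000 bp before to 500 bp after a gene's outermost start. It was called hyper when it held at least 3 listed hyper positions that made up at least 80% of its listed positions. Of 8499 promoters with enough listed positions, 152 (1.79%) were hyper in all 4 lines. Of these, 40 (0.471% of the 8499) were not hyper in the germline stem cells. The 8 genes are among these 40, and the other 32 include predicted genes.

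Reduced representation bisulfite sequencing, a method limited to CpG-rich fragments of the genome, had been used to measure DNA methylation in 6 mouse lines of the OG2 strain grown in vitro, a strain that carries a green fluorescent reporter under the Pou5f1 promoter. iPSC (2 independent lines) are induced pluripotent stem cells derived from germline stem cells, gPSC (2 independent lines) are germline-derived pluripotent stem cells, GSC (1 line) are germline stem cells, and ESC (1 line) are embryonic stem cells. The labels name no sex, passage, reprogramming factors or culture condition. The 5 libraries other than ESC have a table of hyper and a table of hypo positions each. Each listed position carries the methylation difference in percentage points (points) between the library and a reference that the tables do not name. It was taken to be ESC, the only sample without tables, so that all 5 libraries share it. Every listed position had a q of at most 0.01 and a difference of at least 25 points, and a position missing from a table may be unchanged or unmeasured. Coverage is not given, so the depth is unknown and no interval can be set on a difference. Each deposited q sets a single library of the authors against a single reference, and neighbouring positions can lie on the same reads.

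Methylation of cytosine in CpG pairs is copied at cell division by maintenance enzymes and set by de novo enzymes. Promoters rich in CpG are usually unmethylated, and dense methylation around a gene's start is associated with stable silencing. Male germline cells and pluripotent cells carry different methylation patterns, and reprogramming has to replace the germline pattern with the pluripotent one. The 8 genes belong to no single pathway. Cd48 encodes a surface receptor of the SLAM family on leukocytes and Tmem100 a transmembrane protein induced by ALK1 signalling in endothelium. Necab1 encodes a neuronal calcium-binding protein and Ppfia2 liprin-alpha-2, a scaffold of the presynaptic active zone. Ube2u encodes a ubiquitin-conjugating enzyme, and Ankle2 a LEM-domain protein that helps the nuclear envelope to reform after mitosis. Ccdc146 encodes a centriole and microtubule protein needed for mouse sperm flagella, and Fam185a is its divergent neighbour.

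Promoter sequences from RefSeq (GRCm38.p6, 300 bases each, plus strand, with the transcript's annotated start after base 250) were matched to 5 of the 8 genes. The 3 shown here span the range from few to many CpGs and carry 4 listed positions between them, with every CpG in capitals.
Ube2u: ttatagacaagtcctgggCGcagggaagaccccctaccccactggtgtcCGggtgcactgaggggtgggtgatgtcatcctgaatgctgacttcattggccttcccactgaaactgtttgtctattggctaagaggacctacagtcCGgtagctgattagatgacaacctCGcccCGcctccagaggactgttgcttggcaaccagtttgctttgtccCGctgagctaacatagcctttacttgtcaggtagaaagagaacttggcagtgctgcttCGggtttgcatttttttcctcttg
Cd48: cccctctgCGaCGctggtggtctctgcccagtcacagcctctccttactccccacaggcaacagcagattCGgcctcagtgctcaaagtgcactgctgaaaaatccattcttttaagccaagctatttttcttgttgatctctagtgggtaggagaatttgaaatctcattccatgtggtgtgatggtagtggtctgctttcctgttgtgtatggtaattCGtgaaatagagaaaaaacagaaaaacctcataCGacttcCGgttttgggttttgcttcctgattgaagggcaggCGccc
Ankle2: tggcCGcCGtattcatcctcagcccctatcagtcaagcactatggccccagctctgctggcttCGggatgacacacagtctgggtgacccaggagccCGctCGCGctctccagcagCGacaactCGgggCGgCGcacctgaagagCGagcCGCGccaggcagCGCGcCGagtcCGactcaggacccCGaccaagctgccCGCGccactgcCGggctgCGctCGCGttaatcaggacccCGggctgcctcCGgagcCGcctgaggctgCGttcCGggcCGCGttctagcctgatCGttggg
The Ube2u sequence (chr4:100478617-100478916) held 7 CpGs, which is also the median over 32851 promoter sequences. The second and the third of these held the listed positions 100478666, 100478763 and 100478764, and both lie in the motif CCGG, searched on both strands of these windows, which reads the same on each. CCGG is the site of MspI, the usual enzyme of the method, although the labels name no enzyme, and 52.8% of promoter sequences hold it. The Cd48 sequence (chr1:171681742-171682041) held 7 CpGs, of which the last held position 171682038. The Ankle2 sequence (chr5:110230754-110231053) held 32 CpGs, as many or more than which are found in 9.52% of promoters, and no listed position. The Ankle2 positions described below lie downstream of it. Fam185a and Ppfia2 had 11 and 20 CpGs in their sequences, with no listed position in either. Necab1, Ccdc146 and Tmem100 have no entry in that sequence table. Over all promoter sequences, 99.9% of 34061 listed positions stood at the C or the G of a CpG, so the tables treat the cytosines of a CpG pair on the 2 strands as separate positions.

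All 8 promoters were hyper in all 4 lines, as the choice required, against 8.11% of promoters hyper in iPSC 1, 7.82% in iPSC 2, 9.17% in gPSC 1, 10.3% in gPSC 2 and 15.8% in GSC. No promoter of the 8 held a hypo position in any line. The calls depend on the limits: with at least 50 points required none of the 8 was hyper in all 4 lines, and with a q of at most 0.001 Ube2u and Ankle2 were. At 50 points Ankle2 fell short through 1 position in gPSC 1, at 49.1 points. Tmem100 fell short through 1 position in iPSC 2, at 43.9 points. The median of the 8 promoter means was 49.3 points in iPSC 1, 45.8 in iPSC 2, 51.7 in gPSC 1, 50.4 in gPSC 2 and 10.1 points in GSC, where 5 promoters had a value. Over the 152 promoters hyper in all 4 lines, the corresponding medians were 50.6, 49.0, 53.4, 49.97 and, in GSC, 57.1 points, where 143 had a value. The size of the difference in the lines was thus close to that of the other hyper promoters, and the lower GSC median follows from the selection. Among the 8499 promoters the median mean difference lay between −0.95 and 6.70 points in the lines and was −0.19 points in GSC. These medians cover only promoters with a listed position in the library. They numbered 5409, 6102, 6472 and 5231 in iPSC 1, iPSC 2, gPSC 1 and gPSC 2, and 7412 in GSC.

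When positions alone were counted, GSC listed fewer than 3 hyper promoter positions in 6 of the 8 genes. Unlisted positions may be unmeasured, so a lack of methylation in GSC is not shown for them. Ccdc146 and Fam185a have a common block and are not separate observations among the 6. Of all 40 promoters that met the rule, 6 held 3 or more hyper positions in GSC and 9 had no listed position there. Necab1, Ccdc146 and Fam185a had no listed promoter position in GSC, Ppfia2 had 1 hypo position, Tmem100 had 1 hyper position, and Ube2u had 1 of each. Ankle2 and Cd48 did hold 3 or more hyper positions in GSC and missed the call only because hypo positions stood beside them. Ankle2 held 3 hyper positions and 1 hypo position in GSC, which is 75% and under the 80% required. Cd48 held 9 hyper and 5 hypo positions. With no share required, a rule added after seeing the data, both were hyper in GSC.

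**Figure D1:**
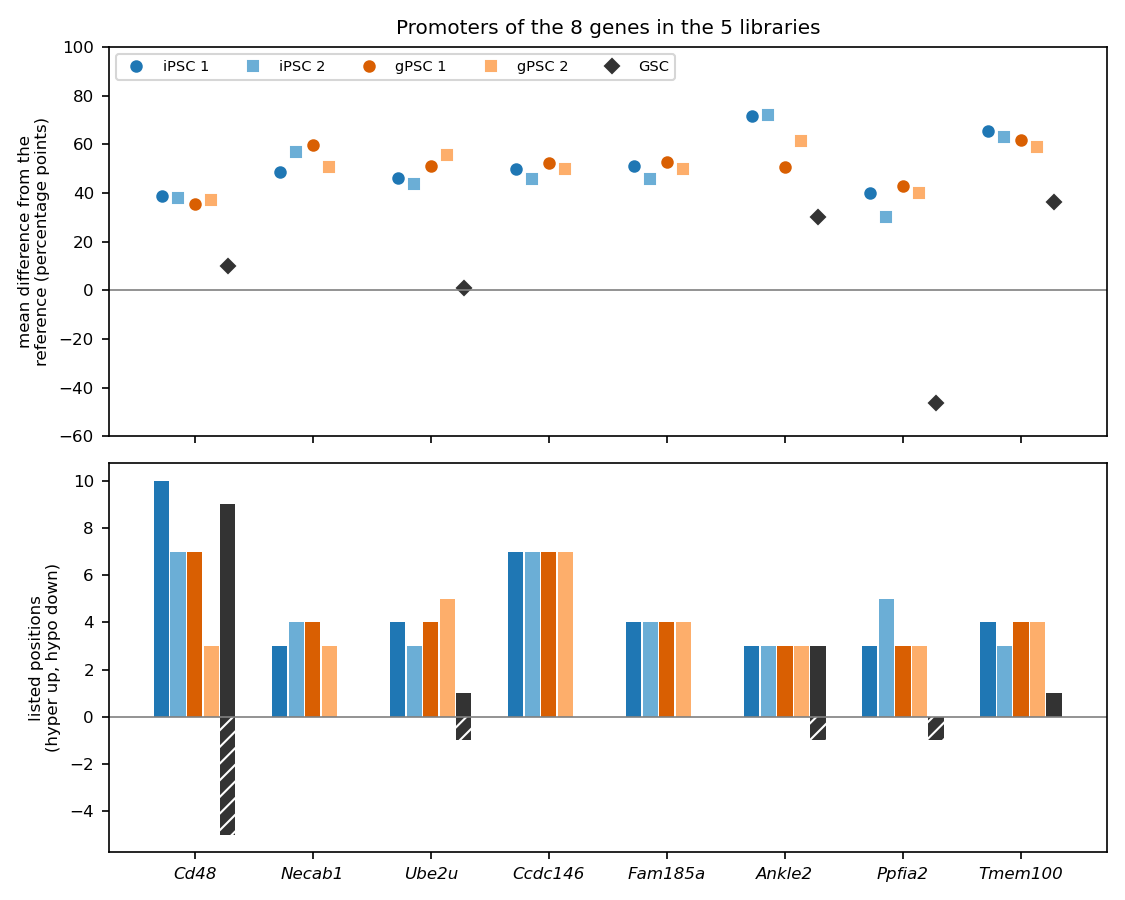
Mean difference from the reference over the listed promoter positions (upper panel, percentage points) and number of listed positions (lower panel, hyper above 0, hypo below 0 and hatched) for each gene in iPSC 1, iPSC 2, gPSC 1, gPSC 2 and GSC. The 4 lines lie between 30.3 and 72.0 points for all 8 genes, and GSC has no point for Necab1, Ccdc146 and Fam185a, where it lists no position.

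Cd48, the SLAM receptor, had the most listed promoter positions of the 8 genes (chromosome 1, gene 171681245 to 171705258). Its promoter held 10 hyper positions in iPSC 1 and 7 in iPSC 2, with 7 in gPSC 1 and 3 in gPSC 2, against 9 hyper and 5 hypo positions in GSC. The mean difference was 38.6, 38.1, 35.3 and 37.0 points in iPSC 1, iPSC 2, gPSC 1 and gPSC 2, against 10.1 points in GSC. All positions lay in a stretch from 1418 to 1265 bp upstream of the outermost start, 171681245. The transcript of the sequence above starts further downstream, at 171681992. A window of 2000 bp before that start would not reach the stretch, so the call depends on the start used. The position farthest upstream, 171679827, stood at 89.1 points in iPSC 1, 58.6 in iPSC 2 and 63.4 in gPSC 1 and was listed in neither gPSC 2 nor GSC. The only position hyper in all 4 lines was 171679977, at 28.9, 27.3, 31.7 and 38.3 points in iPSC 1, iPSC 2, gPSC 1 and gPSC 2, and it was also hyper in GSC, at 30.3 points. In GSC the position 1 bp before it was lower than the reference by 39.8 points. Opposite neighbours of this kind made up 4 of the 5 hypo positions of GSC, at −44.0 beside 41.0, −33.4 beside 41.5, −36.4 beside 29.7 and −39.8 beside 30.3 points. The other hypo position, 171679855, stood at −60.8 points in GSC. Such pairs are common in the tables. Over the whole genome, 83.7%, 87.0%, 86.7% and 79.3% of neighbouring pairs had opposite directions in iPSC 1, iPSC 2, gPSC 1 and gPSC 2, against 63.3% in GSC. In the promoters of the 8 genes no line listed positions 1 bp apart, so no such pair could occur there. The share of hyper positions that the choice required also left little room for hypo positions in the lines. The absence of such pairs therefore sets these promoters apart from the genome in no way that was tested. Without positions in opposite pairs 1 bp apart, Cd48 became hyper in GSC, at a mean of 25.5 points. Without positions that had an opposite position within 50 bp, Cd48 kept no listed promoter position in GSC and was not hyper there. It was also the gene lost from the 8 when promoters reached only 1000 bp upstream.

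Tmem100, the ALK1-induced membrane protein, had the highest differences after Ankle2 on average over the lines (chromosome 11, gene 90030348 to 90036508). Its promoter held 4, 3, 4 and 4 hyper positions in iPSC 1, iPSC 2, gPSC 1 and gPSC 2, against 1 hyper position in GSC. The mean difference was 65.6 points in iPSC 1 and 62.9 in iPSC 2, with 61.6 in gPSC 1 and 58.9 in gPSC 2. Position 90029531, 817 bp upstream, stood at 69.4, 78.4, 70.8 and 56.4 points in iPSC 1, iPSC 2, gPSC 1 and gPSC 2, against 36.2 points in GSC. Every line was thus above GSC at this position, which was among those that chose the gene, and GSC has 1 library. Over the genome, GSC lay below every line at 5.38% of the positions hyper in all 5 libraries. The positions 24 and 49 bp further on, 90029555 and 90029580, were hyper in all 4 lines, at 43.9 to 74.5 points, and not listed in GSC. If 1 reference served all libraries, its level at 90029531 was at most 21.6%.

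Necab1, the neuronal calcium-binding protein, was hyper immediately downstream of its start (chromosome 4, gene 14952245 to 15149804, minus strand). The promoter held 3, 4, 4 and 3 hyper positions in iPSC 1, iPSC 2, gPSC 1 and gPSC 2 and no listed position in GSC. Position 15149787, 17 bp downstream of the start, stood at 73.3 points in iPSC 1 and 87.1 in iPSC 2, with 76.3 in gPSC 1 and 70.0 in gPSC 2, which bounds a common reference at 12.9%. Positions 39 and 87 bp downstream were lower, at 36.3, 50.6, 42.2 and 41.8 points and at 36.3, 46.3, 39.0 and 40.5 points in iPSC 1, iPSC 2, gPSC 1 and gPSC 2. Differences within the block of 71 bp thus spread by up to 40.8 points in 1 line, more than the lines differed at any of the 3 positions.

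Ppfia2, the presynaptic scaffold liprin-alpha-2, had the smallest differences next to Cd48 on average over the lines (chromosome 10, gene 106469500 to 106933468). Its promoter held 3, 5, 3 and 3 hyper positions in iPSC 1, iPSC 2, gPSC 1 and gPSC 2, with means of 39.9, 30.3, 42.8 and 40.02 points. GSC listed 1 position, hypo at −46.6 points, 495 bp downstream of the start and away from those of the lines. The lines' positions lay 128 to 30 bp upstream of the outermost start. The Ppfia2 promoter sequence counted above belongs to a start further downstream, at 106470310, and lies beyond the promoter window, which ends at 106470000. Only 106469409 and 106469421 were hyper in all 4 lines, at 49.3, 35.9, 51.9 and 38.6 points and at 33.9, 32.6, 45.6 and 42.6 points in iPSC 1, iPSC 2, gPSC 1 and gPSC 2. At the hypo position of GSC a common reference had to be methylated at 46.6% or more.

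Ube2u, the ubiquitin-conjugating enzyme, was hyper on both sides of its start (chromosome 4, gene 100478867 to 100550145). The promoter held 4, 3, 4 and 5 hyper positions in iPSC 1, iPSC 2, gPSC 1 and gPSC 2, against 1 hyper and 1 hypo position in GSC. The means were 46.2, 43.8, 50.9 and 55.5 points in iPSC 1, iPSC 2, gPSC 1 and gPSC 2, against 0.94 points in GSC. The later of the listed CpGs in the sequence above was listed in all 5 libraries. Its G, 100478764, was higher by 42.1 points in iPSC 1 and 39.2 in iPSC 2, with 50.5 in gPSC 1 and 45.7 in gPSC 2, against 38.1 points in GSC. Its C, 100478763, was listed in GSC only, at −36.2 points. The 2 cytosines of this CpG were thus listed with opposite signs in GSC, as in the neighbouring pairs of Cd48. Downstream, in a stretch that the authors' deposited table marks as exon and promoter, 100479086 and 100479099 were hyper in all 4 lines at 39.2 to 67.6 points and not listed in GSC.

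Ankle2, the nuclear envelope protein, had the highest mean differences in both iPSC lines (chromosome 5, gene 110231004 to 110256651). The same 3 positions, 226 to 268 bp downstream of the start, were hyper in all 5 libraries, at a mean of 71.8 points in iPSC 1 and 72.0 in iPSC 2, with 50.8 in gPSC 1 and 61.5 in gPSC 2, against 64.8 points at each of these positions in GSC. GSC thus lay between the iPSC and the gPSC lines, and at these positions it did not differ from the lines in direction. A further position, 110231105, was listed in GSC only, at −74.0 points with an authors' q of 0.00111. It lay 101 bp downstream of the start. At q of at most 0.001, the hypo position was lost and Ankle2 was hyper in GSC. The differences at the 3 positions were equal or nearly so within each library.

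Ccdc146, the sperm flagellum protein, and Fam185a start 184 bp apart on opposite strands of chromosome 5 and share the same listed block (genes 21292422 to 21424677 and 21424861 to 21488271). The block held 7 positions from 21425305 to 21425407, downstream of the Fam185a start and upstream of that of Ccdc146, and the authors' deposited table marks them as exon and promoter. All 7 fell in the Ccdc146 promoter and 4 of them in that of Fam185a, so the 2 genes are not separate observations. All were hyper in all 4 lines and none was listed in GSC. The mean over the 7 positions was 49.9 points in iPSC 1 and 45.8 in iPSC 2, with 52.5 in gPSC 1 and 49.8 in gPSC 2. Within a line the 7 values spanned at most 8.77 points. Several were equal to the last digit, such as 49.1 points at 5 positions of iPSC 1. The authors' q ran from 0.000267 to 0.00362, and at q of at most 0.001 the promoters of both genes were no longer hyper in all 4 lines.

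**Figure D2:**
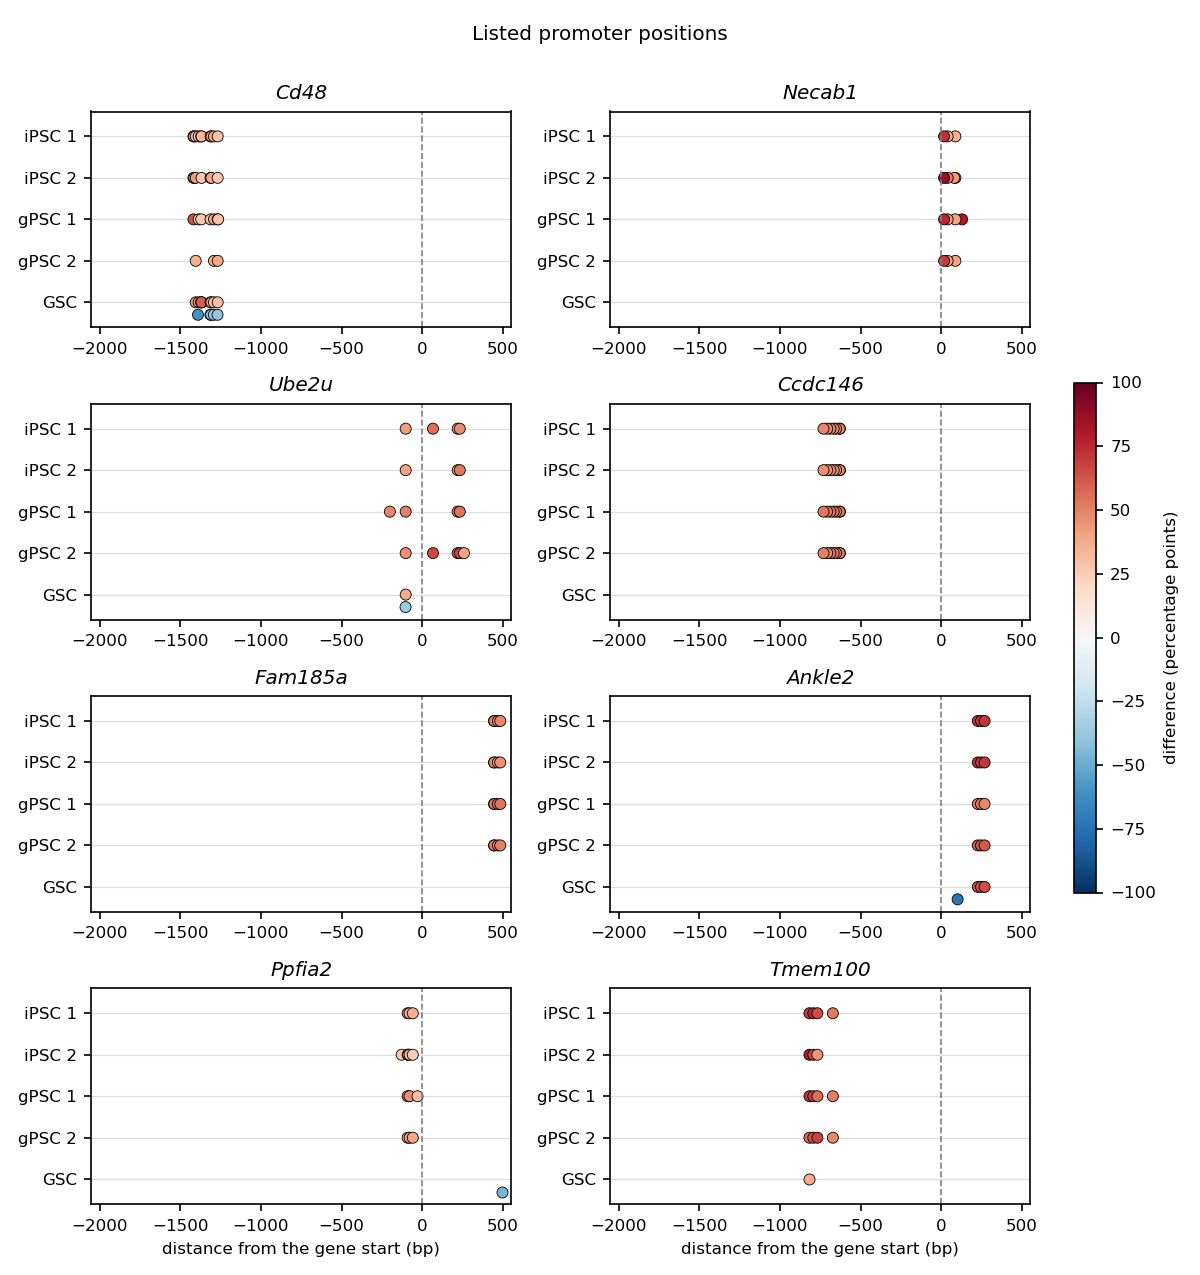
Listed positions in each promoter by distance from the gene start in bp (dashed line at 0) in iPSC 1, iPSC 2, gPSC 1, gPSC 2 and GSC, coloured by the difference in percentage points, with hypo positions drawn slightly lower. The lines share the same blocks, 1418 to 1265 bp upstream in Cd48 and 226 to 268 bp downstream in Ankle2, and hypo positions appear only in GSC, in Cd48, Ube2u, Ankle2 and Ppfia2.

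The rule also had a sharp edge. Of the 8 genes, 6 had exactly 3 hyper promoter positions in at least 1 line. Other promoters that met the rule were at this minimum too, such as Asz1 and Pabpc2, so it was not confined to the 8. The share of the other promoters at this minimum was not computed, so whether it was more frequent among the 8 is not shown. Just outside the rule, 36 promoters of annotated genes with fewer than 3 hyper positions in GSC were 1 position short in 1 line. The 3 with the highest mean differences were Irx4 with 3, 3, 2 and 4 hyper positions in iPSC 1, iPSC 2, gPSC 1 and gPSC 2, E130006D01Rik with 6, 8, 2 and 7, and Igbp1b with 2, 3, 5 and 7. Irx4 averaged 81.6, 67.5, 78.8 and 71.2 points in the 4 lines, above every one of the 8 genes in iPSC 1, gPSC 1 and gPSC 2.

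Beyond the promoters, the windows from 5000 bp before to 5000 bp after the 8 genes held 94 further listed positions, which the choice of genes did not use. With the 52 promoter positions, the windows listed 80 hyper and 4 hypo positions in iPSC 1, 87 and 3 in iPSC 2, 78 and 0 in gPSC 1, 74 and 1 in gPSC 2, and 69 and 9 in GSC. Outside the promoters, 23 positions were hyper in all 4 lines, and 20 of these (87.0%) were also hyper in GSC. In the promoters it was 6 of 22 (27.3%), which the selection fixed. Over all listed positions it was 31103 of 36329 (85.6%). The 20 positions came mostly from Necab1 (12 of 12, of which 10 in 1 block of 355 bp) and Ccdc146 (5 of 5), whereas Ppfia2 had 2 of 5 (40%), Cd48 had 1 of 1, and Ube2u, Ankle2 and Tmem100 had no position hyper in all 4 lines outside the promoter. Of the 26 positions in the windows that were hyper in all 5 libraries, GSC lay above every line at 13 (50%) and below every line at 4 (15.4%), against 56.6% above and 5.38% below over the genome.

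**Figure D3:**
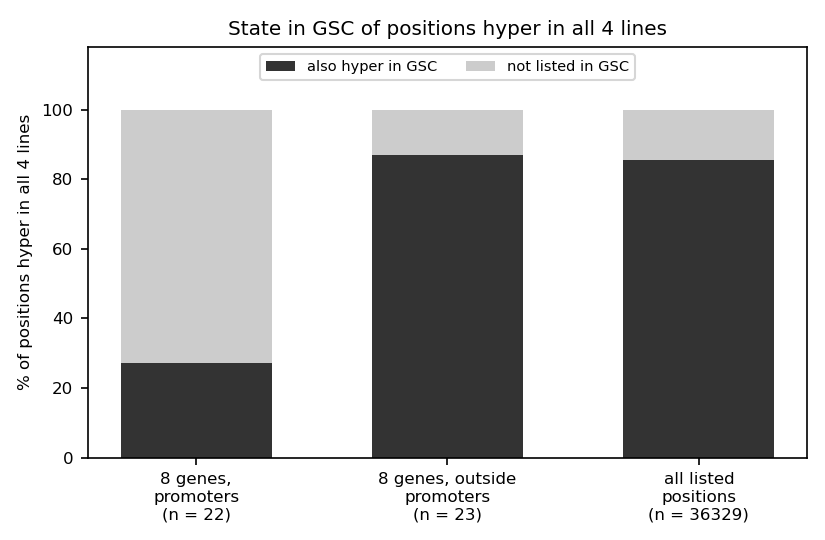
State in GSC of the positions hyper in all 4 lines, as a percentage of the 22 promoter positions of the 8 genes, the 23 positions elsewhere in their windows and all 36329 such positions, of which 12 were hypo in GSC and are too few to see. Positions also hyper in GSC make up 27.3% in the promoters, 87.0% outside them and 85.6% overall.

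Necab1 held the body block with the most positions, 16 from 15020209 to 15020563, about 129 kb downstream of the start. Of these, 12 were hyper in iPSC 1, 14 in iPSC 2, 15 in gPSC 1, 12 in gPSC 2 and 16 in GSC. Over the 10 positions listed in all 5 libraries the mean was 72.4 points in iPSC 1 and 57.6 in iPSC 2, with 62.0 in gPSC 1 and 58.4 in gPSC 2, against 73.5 points in GSC. GSC was above the mean of the lines (62.6 ± 6.79 points, SD, n = 4) but close to iPSC 1. The same gene thus had a promoter block that GSC did not list and a body block that was hyper in all 5 libraries. Over all listed positions of the block, iPSC 1 and GSC were nearly level, at 71.7 points in iPSC 1 against 71.4 points in GSC. A second stretch of its body, 15048354 to 15049998, held 8 listed positions, of which 4 were listed in GSC alone, each at 100 points.

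Ccdc146 had a body block of 11 positions, 21334883 to 21335114. Over the 5 positions listed in all 5 libraries it averaged 52.2, 55.2, 56.6 and 53.2 points in iPSC 1, iPSC 2, gPSC 1 and gPSC 2, against 61.0 points in GSC. GSC was above all 4 lines over these positions, but over all listed positions of the block it averaged 60.2, 64.0, 52.8 and 60.1 points in iPSC 1, iPSC 2, gPSC 1 and gPSC 2, against 58.0 points in GSC, below 3 of the lines. Ppfia2 listed an intron block at 106669942 to 106670065, where position 106670065 stood at 86.1, 72.9, 82.5 and 85.6 points in iPSC 1, iPSC 2, gPSC 1 and gPSC 2, against 88.3 points in GSC. Near it, 106674792 was hypo at −66.7 points in iPSC 1, −59.0 in iPSC 2 and −41.2 in GSC and not listed in either gPSC line.

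In Cd48, position 171682038 in the last CpG of the sequence above was hyper at 70.4, 80.6, 87.1 and 76.9 points in iPSC 1, iPSC 2, gPSC 1 and gPSC 2, against 85.3 points in GSC. The neighbouring 171682187 was hyper at 67.3, 74.1 and 63.6 points in iPSC 2, gPSC 1 and gPSC 2, against 89.4 points in GSC. The authors' deposited table marks these positions as promoter within an exon and an intron, and gives no feature to the 18 positions in the window upstream of the outermost start. The Cd48 positions that the authors mark as promoter were thus hyper in GSC too. In Tmem100, the last listed exon position, 90035805, was hypo at −41.4, −46.5 and −48.3 points in iPSC 1, iPSC 2 and gPSC 2 and not listed in gPSC 1 or GSC. The 3 positions outside the promoters that were hyper in all 4 lines and not listed in GSC all lay in Ppfia2. They were 106476858, 106585292 and 106675509, at 26.1 to 79.6 points in the lines. Fam185a listed 4 intron positions at 21478771 to 21478895, all 4 hyper in iPSC 1, none listed in iPSC 2, 1 and 2 hyper in gPSC 1 and gPSC 2, and 2 hyper in GSC. Ube2u and Ankle2 had few positions outside the promoter, 5 and 1, each listed in a single library at 100 points.

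**Figure D4:**
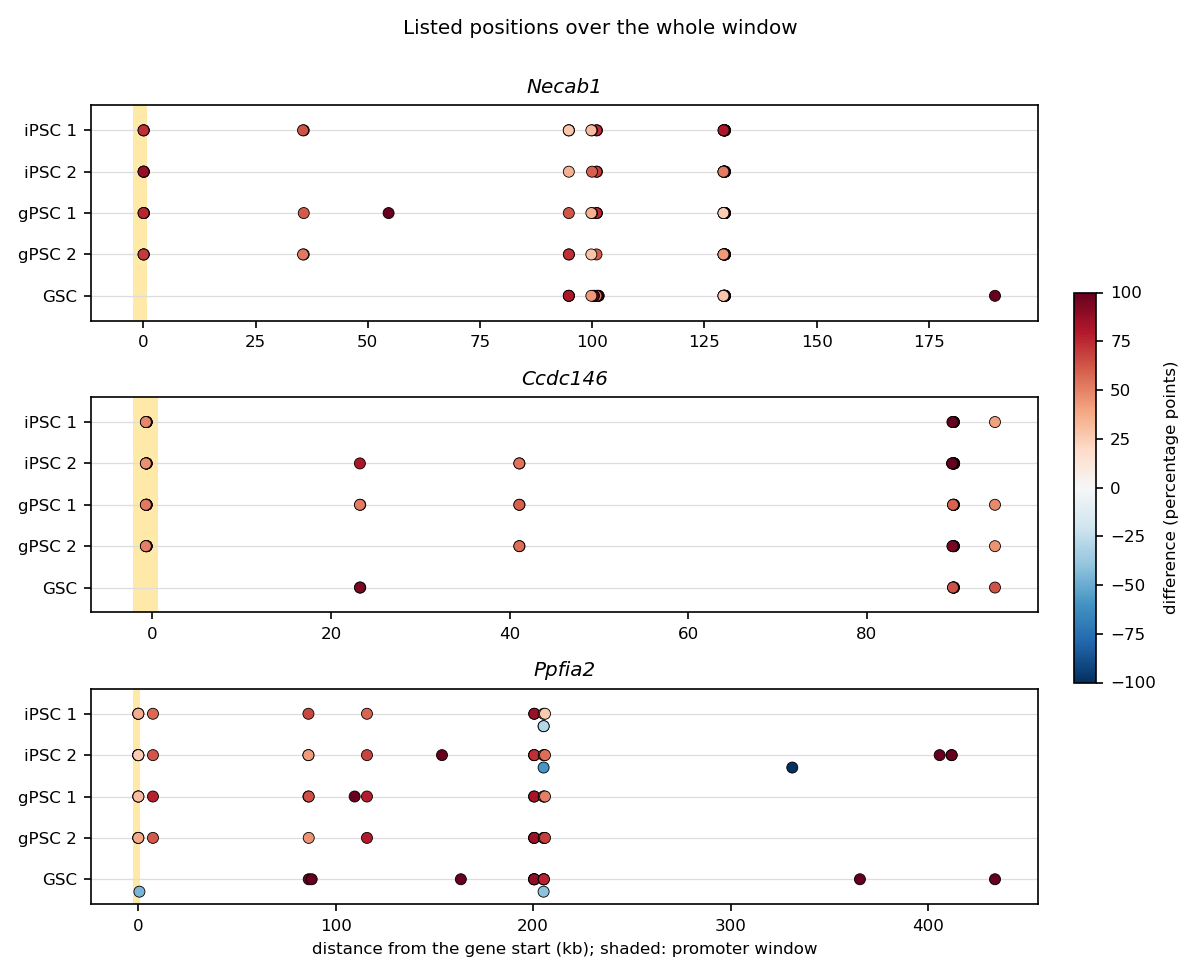
Listed positions over the whole windows of Necab1, Ccdc146 and Ppfia2 by distance from the gene start in kb, with the promoter shaded, in iPSC 1, iPSC 2, gPSC 1, gPSC 2 and GSC, coloured by the difference in percentage points, hypo positions drawn slightly lower. GSC has no hyper position in the shaded promoters but shares the body blocks of the lines, such as the 16 positions of Necab1 about 129 kb downstream.

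The iPSC and gPSC lines were compared over the promoter positions listed in all 4 lines, since the choice of genes required all 4 to be hyper. The smallest p that 2 lines against 2 allow in an exact two-sided permutation test is 0.33, so no gene could pass a threshold below that. Ankle2 averaged 71.9 ± 0.115 points in iPSC and 56.2 ± 7.59 points in gPSC (SD, n = 2 lines each), with both iPSC lines above both gPSC lines (difference 15.7 points, exact permutation p = 0.33). Ube2u averaged 43.5 ± 0.463 points in iPSC and 54.5 ± 3.83 points in gPSC (SD, n = 2 each), with both iPSC lines below both gPSC lines (difference −11.0 points, exact permutation p = 0.33). Cd48 had a single shared position, at 28.1 ± 1.16 points in iPSC and 35.0 ± 4.64 points in gPSC (SD, n = 2 each, difference −6.92 points, exact permutation p = 0.33). Ankle2 and Ube2u thus separated in opposite directions. The lines overlapped in the other 5 genes, with differences from −6.73 points in Ppfia2 to 3.36 points in Necab1 and exact permutation p-values of 0.667 to 1. These separations depend on the positions used. Over all listed positions of each line, both iPSC lines lay above both gPSC lines in Cd48 (2.21 points) and Tmem100 (4.02 points) and below them in Ppfia2 (−6.31 points), each with an exact permutation p of 0.33, so the Cd48 direction turned round. Ankle2 and Ube2u kept their separation and direction over all listed positions, so the lines then overlapped only in Necab1, Ccdc146 and Fam185a. Tmem100 also separated at 50 points and at q of at most 0.001, by 7.56 points each time. The share of all promoters that separate was not computed for these settings.

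Of the 6 genes with 3 or more shared positions, 2 did not overlap between iPSC and gPSC in mean difference, against 33.7% of the 95 promoters hyper in all 4 lines with as many shared positions, so this share was near the background. In the number of hyper positions, none of the 8 genes separated, against 15.1% of the 152 promoters. The counts of Cd48 averaged 8.5 in iPSC and 5 in gPSC (exact permutation p = 0.667), and those of Ube2u 3.5 in iPSC and 4.5 in gPSC (exact permutation p = 0.667). The other 6 counts differed by at most 1 (exact permutation p = 1). With at least 50 points required, the counts of Ccdc146, Fam185a and Ube2u did separate, with fewer in iPSC (exact permutation p = 0.33 each). Ccdc146 and Fam185a have these positions in common. The limit fell between close values there, such as 49.1 points in iPSC 1 and 50 points in gPSC 2 at 21425307. The share of all promoters that separate at this limit was not computed. A p above the threshold does not show that the lines were alike. Leaving out gPSC 2, the Cd48 difference was −3.64 points and leaving out gPSC 1 it was −10.2 points. The Necab1 difference was −2.98 points without iPSC 2 and 9.70 points without iPSC 1, and that of Tmem100 was −0.929 points without iPSC 1 and 6.01 points without iPSC 2.

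**Figure D5:**
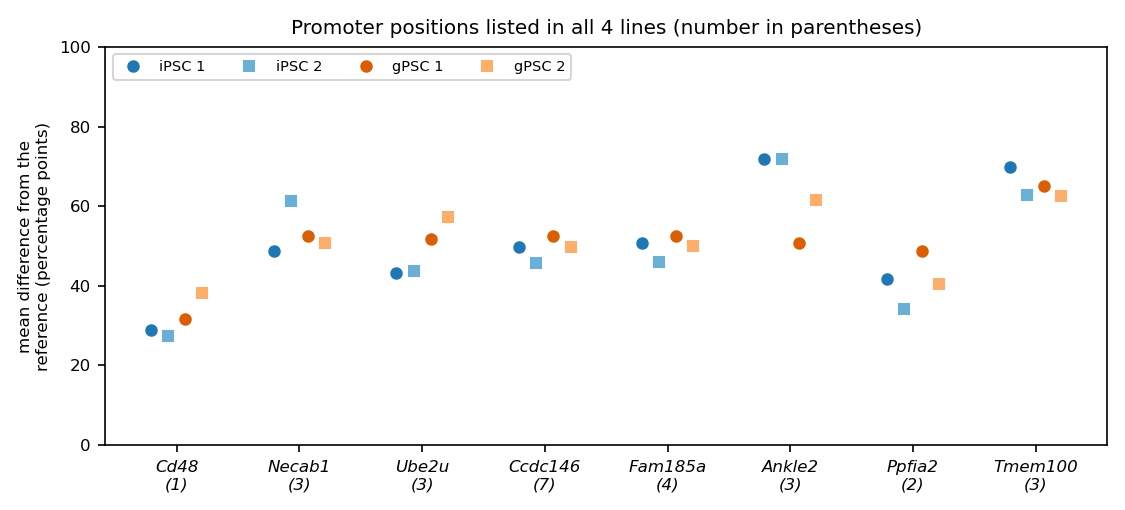
Mean difference from the reference, in percentage points, over the promoter positions listed in all 4 lines (their number in parentheses) for each gene in iPSC 1, iPSC 2, gPSC 1 and gPSC 2. Both iPSC lines lie above both gPSC lines in Ankle2 and below them in Ube2u and Cd48, the last on 1 position and reversed over all listed positions (2.21 points), and the lines overlap in the other 5 genes.

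Relatives and partners of the 8 genes, 103 genes in 7 lists, held 1 promoter hyper in all 4 lines. It was 1 of the 46 whose promoters had enough listed positions (2.17%, against 1.79% of all promoters), and no other was hyper in both iPSC lines or in both gPSC lines, against 3.34% and 4.06% of all promoters. This was Ptprs, a receptor tyrosine phosphatase that binds liprins, with means of 25.4, 47.0, 51.8 and 44.8 points in iPSC 1, iPSC 2, gPSC 1 and gPSC 2, against 73.4 points in GSC, where it was hyper too. In GSC, 4 of the 46 were hyper (8.70%, against 15.8% of all promoters) and 9 were hypo (19.6%, against 11.4%). Their median promoter difference was −14.6 points in iPSC 1, −23.0 in iPSC 2, −3.04 in gPSC 1, −17.1 in gPSC 2 and −21.9 points in GSC, against −0.95, 0.07, 0.45, 6.70 and, in GSC, −0.19 points over all promoters. Both sets of medians cover only promoters with a value in the library. Among the relatives these were 33, 29, 38 and 30 in iPSC 1, iPSC 2, gPSC 1 and gPSC 2, and 38 in GSC.

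The 4 hyper in GSC were Ptprs, Cfap43, a protein of the sperm flagellum, at 76.9 points, Eng, an ALK1 co-receptor, at 83.2 points, and Id2, a target of BMP signalling, at 43.5 points. No line listed a promoter position of Cfap43 or Id2. The 9 hypo in GSC included 5 ubiquitin-conjugating enzyme genes out of 17, Ube2b, Ube2h, Ube2j1, Ube2q1 and Ube2v1, at −28.2 to −58.1 points. In Ube2h, Ube2j1 and Ube2v1, GSC also listed 1 hyper position. The others were Ppfia3 and Ptprf of the liprin list, Lemd3, a LEM-domain protein of the inner nuclear membrane, at −69.5 points, and Necab2. Necab2, a paralogue of Necab1, was the only one hypo in both iPSC lines, against 0.718% of all promoters. It stood at −47.0 points in iPSC 1 and −45.1 in iPSC 2, was hyper at 63.3 points in gPSC 1 (4 hyper and 1 hypo position) and mixed at −1.71 points in gPSC 2 (14 of each), and was at −44.0 points in GSC. Of 9 SLAM family receptors and partners of Cd48, none had enough listed positions.

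Among the promoters outside the 8 that met the same conditions, leaving out predicted genes, the 5 with the 4 line means nearest to the medians of the 8 (Euclidean distance over the 4 lines, in points) were Aknaos, Pabpc2, Rpl39l, Asz1 and CK137956. Asz1, a germ cell protein of piRNA production, stood at 46.3, 33.1, 47.3 and 41.1 points in iPSC 1, iPSC 2, gPSC 1 and gPSC 2, against −15.6 points in GSC. Aknaos stood at 46.4, 39.8, 45.05 and 41.9 points in the 4 lines, against −37.9 points in GSC, where 7 of its 8 listed positions were hypo. The likeness rests on the values that chose these promoters.

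Promoters of marker genes were read in the same way to check the labels. Of 12 germ cell markers tested, 2 were hyper in all 4 lines, Sycp3 and Asz1, against 1.79% of all promoters. In both iPSC lines 3 were hyper, these 2 and Mael, against 3.34% of all promoters. In both gPSC lines 4 were hyper, these 2, Dazl and Tex19.1, against 4.06%. Dazl was mixed in GSC, at −17.1 points (6 hyper and 14 hypo positions). In GSC 5 of the 12 were hypo, Dmrt1, Gfra1, Itga6, Bcl6b and Foxo1, against 11.4% of all promoters, and Tex19.1 was hyper at 55.7 points, against 15.8%. Of 4 pluripotency markers tested, 3 were hyper in GSC, Pou5f1, Zfp42 and Gdf3, again beside 15.8% of all promoters, and Tfcp2l1 was hypo in GSC at −18.9 points (1 hyper and 4 hypo positions). Pou5f1 was hyper in all 4 lines as well, at 58.0, 33.6, 56.9 and 25.3 points in iPSC 1, iPSC 2, gPSC 1 and gPSC 2, against 66.9 points in GSC. Its call thus did not tell the lines from GSC. The reporter of the OG2 strain also carries the Pou5f1 promoter, and whether reads from it entered these values was not tested. Of 3 fibroblast markers tested, none was hyper in both iPSC lines or in both gPSC lines, against 3.34% and 4.06% of all promoters, and 1, Twist2, was hyper in GSC, against 15.8%. With so few markers tested, these counts are a description only. Whether cells of another type contributed to the promoter differences of the 8 genes was not tested.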

How the data were processed

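Reduced representation bisulfite libraries of 6 OG2 mouse lines were labelled GSC, iPSC (2), gPSC (2) and ESC. Bismark, Bowtie2, GATK and methylKit, with mm10 and GRCm38, are named without versions or roles, per the submitters' processing notes. Their settings, any coverage minimum and the treatment of the strands are not given in the sources used. The deposited tables hold a p-value and a q-value from the authors per position. The remaining deposited value is the authors' score of change, a methylation difference in percentage points. Tested on the tables, the largest q was 0.01 and the smallest absolute difference 25 points.

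Coordinates are GRCm38. Gene spans came from RefSeq (GRCm38.p6). Strands came from its promoter table, or for 2488 protein-coding genes, Necab1, Ccdc146 and Tmem100 among them, were inferred from feature labels in the deposited tables, which mark exons and introns of plus-strand genes. Where both were known they were equal for 8410 of 9443 genes (89.1%). Promoter means are unweighted over listed positions. iPSC and gPSC were compared with a two-sided exact permutation test over lines; nothing was tested against GSC, which has 1 library. The series' design calls the lines of a kind independent. Alternatives were the difference, the q, the promoter length, the number of positions, the share, opposite neighbours, leaving out lines and pairing line numbers. Windows ran from 5000 bp before to 5000 bp after each gene, and body blocks joined positions at most 1000 bp apart.

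The members and lists were chosen with earlier results of these data known. Named genes were the 8 members, list genes called in both lines of a kind or in GSC, and the 5 nearest promoters described. The marker genes and the examples just outside the rule were named after their values were seen. Counting and the permutation test were tested on simulated data. Python 3.11.15, numpy 2.4.6, pandas 2.3.3 and matplotlib 3.10.9 were used.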

Additional observations from a re-analysis of the deposited data

How the results depend on the processing

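The 8 genes are hyper in all 4 lines by choice. At a difference of at least 50 points the number was 0, at q of at most 0.001 it was 2 (Ube2u and Ankle2), and with 5 positions needed it was 1 (Ccdc146). Leaving out any 1 line kept 8. The number hyper in GSC was 1 without positions that had an opposite neighbour at 1 bp (Cd48). It was 0 without positions that had an opposite position within 50 bp. At q of at most 0.001 it was 1 (Ankle2), and with 1 position needed it was 1 (Tmem100). With no share needed, added after seeing the data, it was 2 (Ankle2 and Cd48). The 40 promoters hyper in the lines and not in GSC were 9 at 50 points, 26 at q of at most 0.001, 120 with 1 position, 13 with 5 positions, 84 with no share, and 50 to 72 without 1 line (62, 70 and 72 without iPSC 1, iPSC 2 and gPSC 1). At 50 points the windows held 37 hyper positions in iPSC 1, 50 in iPSC 2 and 42 in gPSC 2, and at q of at most 0.001 gPSC 2 held 49. The Cd48 mean in GSC was −0.661 points at 50 points. The limits on difference, q and opposite neighbours change which positions enter, and the other settings change what a call requires.

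Of the differences between iPSC and gPSC, Cd48 was 2.21 points and Necab1 −2.43 points over all listed positions of each line, in place of shared ones. Leaving out a line, Necab1 ranged from −2.98 to 9.70 points and Tmem100 from −0.929 to 6.01 points. The count difference of Ppfia2 was −0.5 positions at 50 points. At that limit it was −6 in Ccdc146, −3.5 in Fam185a and −2 in Ube2u, where the lines separated. The share of all promoters that do so at 50 points was not computed. Ccdc146 and Fam185a have positions in common, and several of their iPSC 1 and gPSC 2 values lay close to the limit. The cause of these changes was not tested. Pairing lines by number, as a replicate block, left the differences as they were, such as −11.0 points in Ube2u, with p of at least 0.5, the smallest that 2 pairs allow. The numbers name lines and mark no shared origin. The unknown depth limits every value, since a position not listed may be unmeasured.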
